A study of Mus musculus with 12 samples.

Results

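Gene expression of cultured mouse podocytes 2 h after fluid flow shear stress (Post-2hr) was compared with that of unsheared cells (Control). The comparison uses 6 of the 12 arrays of the series, the 3 Post-2hr arrays and the 3 Control arrays, and covers the 14860 genes named by 1 symbol among the 23332 rows of the table. The cells are a conditionally immortalized podocyte line from the Immortomouse, which carries the temperature-sensitive tsA58 T antigen, so each group is a culture of a single transgenic line. They were expanded at 33 °C with γ-interferon, moved to 37 °C without it to differentiate, and used on day 14. Post-2hr cells received shear of 2 dynes/cm2, a flow of 75 ml/min, for 2 h at 37 °C, were put back into their original medium, and were harvested after 2 h of recovery. Unsheared Control cells stood in that hood and incubator too, and the labels also call them pre-FFSS, so shear, handling in the flow apparatus and the hours between the harvests cannot be told apart. The other 6 arrays, 3 at the end of shear (End) and 3 after 24 h of recovery (Post-24hr), enter the model and are used here for the course of single genes. Each group has replicates numbered 1 to 3. The labels do not say that these came from separate cultures, so the p-values reflect how far these samples differ among themselves, a spread that may be technical.

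Podocytes are the epithelial cells whose foot processes cover the outside of the glomerular capillaries, where filtrate flows past them. Mechanical and growth factor signals reach the nucleus of such cells within minutes through calcium, cyclic AMP and the MAP kinase ERK, and first switch on immediate early transcription factors such as those of the AP-1, EGR, KLF and NR4A families. Their targets follow, among them secreted cytokines, proteases and their receptors, and inhibitors that shut the same kinases off. Shear on podocytes is known for inducing cyclooxygenase-2 and prostaglandin E2 signalling, which acts partly through cyclic AMP.

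All values are log2 expression, so a difference of 1 is a doubling, and values per array are given in the order of replicates 1, 2 and 3. On the first principal component (42.41% of the variance) replicate 1 of each of the 4 groups lay between −53.24 and −26.73, and the other arrays between 3.00 and 34.50. A term for replicate 1 was called in 7112 rows (30.5%). Calls are therefore given for a model with group means only and for a second model that sets replicate 1 apart with its own term, called the set-apart fit below. Post-2hr replicate 2 was the 1 array of 12 that did not match best with an array of its own replicate number, and it lay at 31.72 on the second component, where Control replicate 2 lay at −18.41. Of the podocyte markers, Nphs1, Wt1, Podxl and Lmx1b averaged 6.76, 7.40, 9.87 and 7.61 in Post-2hr cells, against 6.63, 7.34, 9.88 and 7.50 in Control cells. Tcf21 (6.14 at Post-2hr, 5.95 in Control) and Ptpro (4.73, against 4.66) were dimmer than the array medians of 6.93 to 7.12. In both groups Nphs1 was dimmer than these medians as well, at 6.89 or less in each array. Ptpro lay below the lower quartiles of 5.22 to 5.31. Of the tubular or parietal markers, Pax8 was at 12.44 and 12.48, Cdh16 at 11.70 and 11.93 and Slc34a1 at 6.63 and 6.49 in Post-2hr and Control cells. These single genes do not stand for their lists. The 31 measured podocyte genes had a median Control level of 9.03, with 3 below the lower quartile. Nphs1, Wt1, Lmx1b, Tcf21 and Ptpro were dimmer than that median. The 11 measured tubular or parietal markers had a lower median than the podocyte list, with 1 below the lower quartile. Pax8 and Cdh16 were brighter than both list medians. The leukocyte antigen Ptprc was at 3.99 and 3.97. Cd68 (8.3 and 8.0) and Cd14 (8.2 and 7.9), also on the leukocyte list, were brighter than the array medians in both groups. The 14 measured leukocyte markers had a median Control level of 5.55, with 6 below the lower quartile. No member of the podocyte or tubular list passed a test of the difference. Pax8, Cdh16, Slc34a1, Ptprc, Ptpro and Tcf21 lie outside the rule for named genes and were chosen after their values were seen.

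With group means only, 3 genes rose and 1 fell 2 h after shear, that is 0.0129% and 0.00429% of the 23332 rows tested (limma, Benjamini-Hochberg adjusted p under 0.05). The genes that rose were Plaur, Fosl1 and Klf5, and Gpr146 fell. At an unadjusted p under 0.05 there were 1317 rows (5.64%). After median centring of the arrays the split was 3 higher and 0 lower, and after quantile normalization 4 higher and 0 lower.

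Plaur encodes the urokinase receptor, which holds the protease urokinase at the cell surface and, in podocytes, has been studied as a partner of the integrin that Itgb3 belongs to. It measured 9.93, 9.89 and 9.88 in the Post-2hr arrays, against 8.50, 8.25 and 8.34 in the Control arrays. The 3 Post-2hr values lay within a few hundredths of each other and far above each Control value. Its mean was 9.90 ± 0.03 at Post-2hr and 8.36 ± 0.13 in Control (SD, n = 3 each), a rise of 1.54 ± 0.10 (SE) or 2.9-fold (adjusted p = 0.00079). Plaur was the 1 gene that passed in each of the 12 fits that left out 1 array, under both models, with adjusted p up to 0.0106 with group means only and up to 0.0274 in the set-apart fit. Other members of the urokinase system had smaller differences. The proteases themselves, Plau (urokinase; 0.53) and Plat (tissue plasminogen activator; 0.66), had overlapping groups and set-apart adjusted p of 0.141 and 0.21. Itgb3 measured 7.72, 8.19 and 7.90 at Post-2hr, against 7.31, 7.48 and 7.67 in Control, a difference of 0.45 that did not pass (set-apart adjusted p = 0.17).

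The sequences just upstream of 3 genes higher at Post-2hr are printed because each holds an AP-1 site or a cyclic AMP response element, which CREB and related factors bind. They were picked after the motif matches were seen. Each runs from 250 bases before to 50 bases after the RefSeq start (assembly GRCm38.p6, plus strand), at chr7:24462233-24462532 for Plaur, chr11:4257318-4257617 for Lif and chr13:110394794-110395093 for Plk2. Capitals mark the AP-1 site TGANTCA in Plaur and Lif, 69 and 228 bases before the start, and the cyclic AMP response element TGACGTCA in Plk2, 62 bases before it.
Plaur: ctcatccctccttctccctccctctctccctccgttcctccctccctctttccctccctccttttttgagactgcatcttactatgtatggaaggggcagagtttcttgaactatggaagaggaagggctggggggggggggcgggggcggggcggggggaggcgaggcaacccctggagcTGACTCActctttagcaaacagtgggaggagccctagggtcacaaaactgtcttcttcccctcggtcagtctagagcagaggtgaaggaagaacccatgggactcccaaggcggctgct
Lif: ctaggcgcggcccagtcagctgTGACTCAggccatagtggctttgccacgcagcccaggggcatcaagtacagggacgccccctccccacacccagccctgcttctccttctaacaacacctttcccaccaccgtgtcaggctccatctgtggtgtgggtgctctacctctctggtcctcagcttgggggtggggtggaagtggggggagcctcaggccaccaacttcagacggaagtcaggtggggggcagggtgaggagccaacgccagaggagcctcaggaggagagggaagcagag
Plk2: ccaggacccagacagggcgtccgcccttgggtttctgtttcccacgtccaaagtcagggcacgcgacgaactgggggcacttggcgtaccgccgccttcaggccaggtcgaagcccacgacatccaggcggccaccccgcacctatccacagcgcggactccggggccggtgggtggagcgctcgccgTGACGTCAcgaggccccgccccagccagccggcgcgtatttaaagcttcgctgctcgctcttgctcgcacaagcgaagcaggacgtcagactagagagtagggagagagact
Of the 22 higher genes, 15 have an entry in the promoter table, and of the 6 lower ones, 6. The AP-1 site, on either strand, was in 2 of the 15 promoters of higher genes, in 1 of the 6 of lower genes and in 8.06% of the 11894 promoters of genes with 1 symbol. The cyclic AMP response element was in 2 of 15, 0 of 6 and 2.72%. An EGR site was in 3 of 15, 2 of 6 and 6.15%, and the loose NF-kB pattern GGGNNNNNCC in 15 of 15, 4 of 6 and 64.4%. The SRF CArG box was in 0 of 15, 0 of 6 and 1.56%, and the TATA box TATAAA in 1 of 15, 0 of 6 and 13.2%. These are letter matches in a window of 300 bases and not measured binding sites.

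Fosl1 encodes Fra-1, which pairs with a Jun protein to form AP-1. Its levels were 9.88, 9.62 and 9.29 in Post-2hr arrays and 8.15, 7.81 and 7.79 in Control arrays, with no overlap. The rise was 1.68 ± 0.18 (SE) or 3.2-fold (adjusted p = 0.0182). Klf5, a Krüppel-like zinc finger factor, had 10.28, 10.44 and 10.40 at Post-2hr, against 9.49, 9.41 and 9.57 in Control. It rose by 0.88 ± 0.09 or 1.84-fold (adjusted p = 0.0149), and the lowest Post-2hr array stood 0.71 above the highest Control array.

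Gpr146, a G protein-coupled receptor, was the gene that fell. It measured 7.38, 7.19 and 7.42 in Post-2hr arrays, against 8.08, 8.28 and 8.32 in Control arrays, again without overlap. The difference was −0.90 ± 0.11 (SE), or 1.86-fold lower at Post-2hr (adjusted p = 0.0371). Its call was lost after median centring (−0.84, adjusted p = 0.0829) and after quantile normalization (−0.82, adjusted p = 0.108).

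These 4 calls rest on all arrays together. Plaur alone passed without Control replicate 2, Control replicate 3, End replicate 1 or Post-2hr replicate 2. Leaving out Post-2hr replicate 1, Post-2hr replicate 3 or Post-24hr replicate 3 gave the same counts each time: 2 rows rose and 0 fell. Without Control replicate 1 the counts were 3 and 2, without End replicate 3 they were 3 and 0, and without Post-24hr replicate 1 they were 4 and 0. Fosl1, Klf5 and Gpr146 passed in 6, 7 and 2 of these 12 fits. A fit of the 6 compared arrays on their own called 0 rows (lowest adjusted p = 0.151; 979 rows with an unadjusted p under 0.05; 0 without variance moderation).

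**Figure D1:**
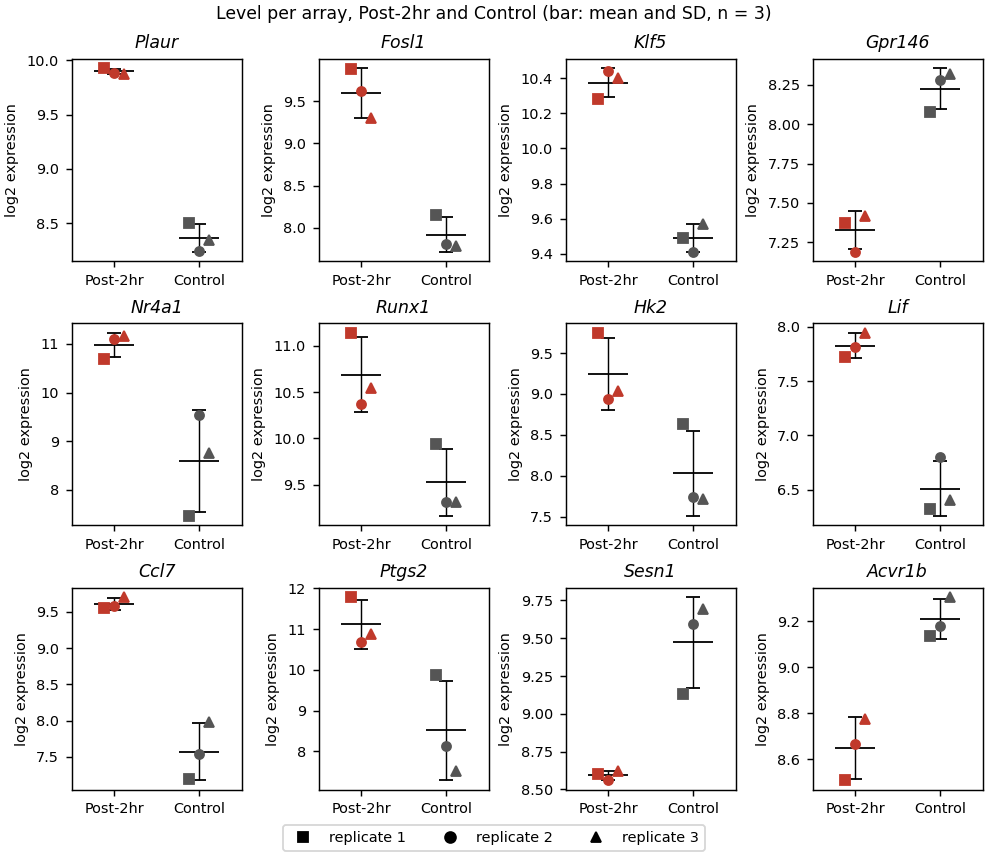
Log2 expression per array for 12 genes, with the 3 Post-2hr arrays (red) left of the 3 Control arrays (grey); symbols give the replicate number and bars the mean and SD. In all 12 panels shown the groups do not overlap. In Plaur, Fosl1, Hk2, Runx1 and Ptgs2 the replicate 1 array (square) is the highest of its group in both groups.

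In the set-apart fit 24 rows rose (0.103%) and 12 fell (0.0514%), which is 22 genes higher and 7 lower among the 14860 genes with 1 symbol (0.148% and 0.0471%). Leaving aside the predicted gene model Gm4952 (−0.90), 22 higher and 6 lower genes are described here by what they encode. Of these 28, the 4 genes above passed with group means only, and the other 24 had adjusted p of 0.0939 to 0.923 there. The split was 29 higher and 4 lower after median centring and 37 higher and 5 lower after quantile normalization. With the replicate number as a block, which pairs the Post-2hr and Control arrays, 28 rows rose (0.12%) and 10 fell (0.0429%), and 29 rows passed in both of these fits. Sesn1, Errfi1 and Atf7ip were lost there (adjusted p = 0.0502, 0.0725 and 0.0712), and 8 named genes were gained. Of these, Plk3, Nr4a2, Maff, Fgfr1 and Mt1 were higher (adjusted p = 0.042, 0.0448, 0.0478, 0.0389 and 0.0456), and Sned1, Zbtb8b and Nr2f2 lower (adjusted p = 0.0389, 0.0456 and 0.0473). The last 5 of these 8 were named after their values were seen.

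Most of these calls needed each of the 6 compared arrays. The set-apart counts of rows higher and lower were 1 and 0 without Post-2hr replicate 1, 2 and 0 without Post-2hr replicate 2, and 3 and 0 without Post-2hr replicate 3. They were 3 and 2 without Control replicate 1, 1 and 0 without Control replicate 2, and 1 and 0 without Control replicate 3. Arrays outside the comparison mattered too, through the shared estimate of the spread. The counts were 12 and 4 without End replicate 1, 21 and 4 without End replicate 2, 10 and 2 without End replicate 3, 24 and 8 without Post-24hr replicate 1, 9 and 1 without Post-24hr replicate 2, and 4 and 0 without Post-24hr replicate 3. The fitted changes varied less than the counts. Nr4a1 ran from 2.00 to 2.66, Hk2 from 1.18 to 1.30 and Sesn1 from −1.01 to −0.81.

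Besides Fosl1 and Klf5, further genes that encode regulators of transcription rose in the set-apart fit. Nr4a1, an orphan nuclear receptor switched on by many acute signals, had the largest rise of the 22. It measured 10.68, 11.09 and 11.16 in Post-2hr arrays, against 7.46, 9.55 and 8.77 in Control arrays. The Control arrays were spread over 2.09 and the Post-2hr arrays over 0.47, without overlap. The rise was 2.38 ± 0.34 (SE of the set-apart fit), or 5.22-fold (set-apart adjusted p = 0.0417). Runx1, a factor best known from blood formation, had 11.14, 10.37 and 10.55, against 9.95, 9.31 and 9.32, a rise of 1.16 ± 0.13 (adjusted p = 0.0277). Replicate 1 was the highest array of each group, and the change was 1.20 within replicate 1 and 1.15 within replicates 2 and 3. Ahr, the ligand-activated aryl hydrocarbon receptor, rose by 0.86 ± 0.11 although its groups overlap, because both replicate 1 arrays were low (10.00 at Post-2hr and 9.24 in Control). Nfatc1, which calcineurin activates in response to calcium, had 9.68, 9.05 and 9.24 at Post-2hr, against 8.76, 8.43 and 8.41 in Control, a rise of 0.79 ± 0.10. Klf13 rose by 0.63 ± 0.08. Its arrays were among the tightest of the set, at 9.94, 9.89 and 9.88 for Post-2hr and 9.28, 9.33 and 9.21 for Control. Tcim, a small regulator of transcription, rose by 1.75 ± 0.23, with 9.95, 10.15 and 10.11 at Post-2hr and 7.82, 8.89 and 8.23 in Control.

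Some of the higher genes encode secreted signals. Ccl7, a chemokine that attracts monocytes, measured 9.56, 9.57 and 9.71 at Post-2hr, against 7.19, 7.54 and 7.99 in Control, a rise of 2.04 ± 0.24 or 4.12-fold (set-apart adjusted p = 0.0306). Cxcl1, a chemokine for neutrophils, had 9.05, 8.80 and 9.55, against 6.77, 7.53 and 7.84, a rise of 1.76 ± 0.25 or 3.38-fold (adjusted p = 0.0417). In both chemokines the groups were apart, and the Control replicate 1 array was the lowest of the 6. Lif, a cytokine of the interleukin-6 family, had 7.72, 7.82 and 7.95, against 6.33, 6.80 and 6.41, a rise of 1.32 ± 0.19 or 2.49-fold (adjusted p = 0.0417). The transcripts of its receptor chains and of its signalling factor showed no such shift. Lifr differed by −0.16, Il6st by −0.02 (both looked up after Lif was seen) and Stat3 by −0.12, and none passed.

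Genes that act on the ERK pathway or its receptors also rose. Dusp6, a phosphatase that removes the activating phosphates from ERK, measured 9.07, 10.89 and 11.29 at Post-2hr, against 7.61, 9.62 and 9.60 in Control. Its groups overlap only because the replicate 1 arrays were low, and within the replicate numbers it was higher by 1.46, 1.27 and 1.68. The rise was 1.47 ± 0.18 (set-apart adjusted p = 0.0328), and the adjusted p without that term was 0.923. Ier3, an early response gene that acts on ERK and cell survival, had 12.16, 11.87 and 12.38, against 11.05, 10.81 and 11.10, a rise of 1.15 ± 0.15. Errfi1, which binds and blocks the EGF receptor, had 11.96, 12.19 and 12.46, against 11.31, 11.81 and 11.64, a rise of 0.61 ± 0.09.

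The remaining genes that rose encode enzymes, channels and membrane proteins. Hk2, the hexokinase that commits glucose to glycolysis in many cultured cells, had 9.75, 8.94 and 9.04 at Post-2hr, against 8.63, 7.74 and 7.71 in Control, a rise of 1.22 ± 0.14 or 2.33-fold (set-apart adjusted p = 0.0294). Ugdh, which makes the UDP-glucuronate used for hyaluronan and other glycosaminoglycans, had 11.65, 11.01 and 10.91, against 10.89, 10.19 and 10.16, a rise of 0.77 ± 0.09. In both enzymes the replicate 1 arrays were the highest of their groups. Lrrc8c, a subunit of the anion channels that open when cells swell, rose by 0.73 ± 0.08, and there the replicate 1 arrays were the lowest (10.74 at Post-2hr, 10.11 in Control). Lrp8, a receptor for reelin and apolipoprotein E, rose by 0.89 ± 0.11, Ehd1, an ATPase of endocytic recycling, by 0.59 ± 0.08, and Zswim4 by 0.69 ± 0.09. Plk2, a polo-like kinase, had 11.28, 11.16 and 11.40, against 10.65, 10.56 and 10.64, a rise of 0.66 ± 0.09 (adjusted p = 0.0328).

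Besides Gpr146, 5 named genes fell in the set-apart fit. Sesn1, a sestrin that restrains the growth kinase mTORC1, measured 8.60, 8.56 and 8.62 at Post-2hr, against 9.13, 9.59 and 9.70 in Control. The Post-2hr arrays lay close together and below each Control array, and the difference was −0.88 ± 0.12, or 1.84-fold lower (set-apart adjusted p = 0.0404). Cox7b, part of mitochondrial complex IV, had 5.51, 6.01 and 6.13, against 6.33, 6.69 and 6.87, a difference of −0.75 ± 0.09 (adjusted p = 0.0306). All of these values were dimmer than the array medians of 6.93 to 7.12. Cox7b also differed from Control by −0.495 at End and −0.673 at Post-24hr, where it did not pass. Atf7ip, a cofactor of the histone methyltransferase SETDB1, had 9.65, 9.66 and 9.67, against 10.38, 10.24 and 10.16, a difference of −0.60 ± 0.09. Acvr1b, a type I receptor for activin, had 8.51, 8.67 and 8.78, against 9.14, 9.18 and 9.31, a difference of −0.56 ± 0.07. C1rl, a serine protease related to complement C1r, differed by −0.51 ± 0.06. In RNA from whole cultures, fewer cells with a transcript and less of it per cell cannot be told apart.

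**Figure D2:**
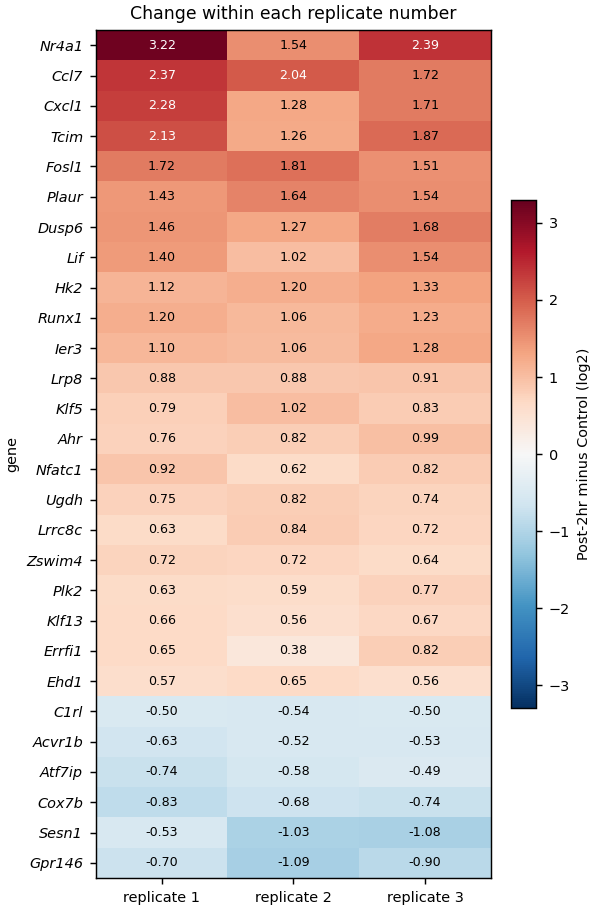
Post-2hr minus Control (log2, colour and printed value) within replicates 1, 2 and 3 for the 28 named genes past the threshold in the set-apart fit, ordered by their mean change. All 3 columns have the same sign in each of the 28 genes, and Nr4a1 has the widest range, 3.22, 1.54 and 2.39. The genes were chosen by a test of these same differences, so a shared sign is largely built in.

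Of these 28 genes, 26 had groups that did not overlap, beside 731 genes above and 710 below (4.92% and 4.78%) among all 14860. Each of the 22 higher genes had its highest group mean at Post-2hr, and each of the 6 lower genes had its lowest there. All of these counts, the lack of overlap included, describe genes chosen by their difference between 2 of those 4 groups. They are therefore largely built in.

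Several large differences did not pass either test. Ptgs2, the cyclooxygenase-2 gene and the largest difference among all genes with 1 symbol, measured 11.79, 10.69 and 10.87 at Post-2hr, against 9.88, 8.13 and 7.52 in Control. The groups do not overlap, but the Control arrays were spread over 2.36, and the difference of 2.61 ± 0.44 had a set-apart adjusted p = 0.0806. The prostaglandin E2 receptor genes Ptger4 and Ptger2 differed by 1.08 and 0.32 (adjusted p = 0.0873 and 0.417). Ptger4 was at 9.63, 9.83 and 10.07, against 7.90, 9.22 and 9.18, with 1.73 as the change within replicate 1 and 0.75 within replicates 2 and 3. Ccl2, a monocyte chemokine next to Ccl7 in function, had 11.20, 11.73 and 11.88, against 7.51, 10.21 and 10.14, a difference of 2.31 that was 3.68 within replicate 1 and 1.63 within replicates 2 and 3 (adjusted p = 0.0988). Cxcl10, an interferon-inducible chemokine, and the early response factors Egr3 and Egr2 differed by 1.60, 1.52 and 1.44. Plk3, a polo-like kinase, Tnfaip3, an inhibitor of NF-kB, and Bhlhe40, a repressor of clock genes, differed by 1.43, 1.40 and 1.33. The groups did not overlap in any of these 6 genes. The naming rule for the largest changes, which took Cxcl10, Egr3, Egr2 and Bhlhe40, required this. The set-apart adjusted p of the 6 genes ran from 0.0524 for Bhlhe40 to 0.161 for Egr2. Myc differed by 1.27, with replicate 1 high in both groups (11.94 at Post-2hr, 11.42 in Control), and by 1.65 within replicates 2 and 3 (adjusted p = 0.0806).

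Among the lower genes that did not pass, Atoh8, a basic helix-loop-helix factor, was at 8.06, 7.99 and 7.92, against 8.73, 9.60 and 9.39, the most negative difference of all genes with 1 symbol (−1.25 ± 0.19, adjusted p = 0.0513). Ppargc1a, a coactivator of mitochondrial genes, was at 7.40, 6.64 and 6.85, against 7.88, 7.98 and 7.70 (−0.89, adjusted p = 0.13). Smad9, a mediator of BMP signals, differed by −0.87 (adjusted p = 0.14), with −0.20 within replicate 1 and −1.20 within replicates 2 and 3. Dbp, a clock output factor, differed by −0.78 and Klhdc7a by −0.89. In each of these 5 genes the 3 Post-2hr arrays lay below the 3 Control arrays. The naming rule for the largest changes, which took Atoh8, Dbp and Klhdc7a among others, required this.

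Gene lists were read by their counts and medians beside all 14860 genes, whose median change was −0.007 and of which 48.2% had a higher and 51.8% a lower mean at Post-2hr. That share depends on scaling. Median centring moved the median of all genes to 0.049 and the number of higher means to 9268, and quantile normalization gave 0.029 and 8564. List medians near 0 are therefore not given a direction.

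Of the immediate early families, AP-1 had the highest median of the mean change, also among all 36 lists. Its median was 0.89 within replicate 1 and 0.45 within replicates 2 and 3. Within replicates 2 and 3 the lists of endothelial shear targets (0.56) and ERK feedback genes (0.47) had higher medians. Of 11 measured AP-1 and partner subunits, 10 had a higher mean, 5 had all 3 Post-2hr arrays above all 3 Control arrays, and the median change was 0.60. Fosl1 passed; Junb (0.86), Maff (0.84) and Fosl2 (0.60) did not overlap but did not pass. Of 16 EGR and IER genes 15 had higher means (median 0.39), and 1, Ier3, passed. Of 12 Krüppel-like factors 9 had higher means (median 0.24), and Klf5 and Klf13 passed, while Klf10 (0.65) and Klf4 (0.59) did not. Among the 14 NR4A receptors and cyclic AMP targets the median was 0.14, and the 3 receptors Nr4a1, Nr4a2 and Nr4a3 differed by 2.38, 1.08 and 0.63, the first of them past the threshold. No member of these 4 lists fell by either test. The EGR and IER median was 0.20 without Control replicate 1 and 0.60 without Post-2hr replicate 1, and that of the NR4A list was 0.06 without Control replicate 3 and 0.32 without Control replicate 2.

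The MAP kinase phosphatases and the ERK feedback genes were higher in mean in 10 of 10 and 13 of 13 measured members under all 3 scalings, with median changes of 0.41 and 0.39. Dusp6 passed among the phosphatases and Ier3 and Errfi1 among the feedback genes, in the set-apart fit, and 0 fell. Dusp4 measured 9.62, 8.63 and 8.53 at Post-2hr, against 8.04, 7.57 and 7.71 in Control, a difference of 1.15 (adjusted p = 0.0806). Spry4, which blocks signalling from receptor tyrosine kinases to ERK, had 6.51, 7.48 and 7.20, against 5.84, 6.30 and 6.36, a difference of 0.90 (adjusted p = 0.0916). The phosphatase median was 0.25 without Control replicate 1, and the feedback median 0.65 without Post-2hr replicate 1. The EGF receptor family showed no such shift, with 5 of 10 means higher and a median of 0.03. Its ligand Hbegf had 10.90, 10.98 and 11.36, against 9.39, 10.70 and 10.51, a difference of 0.88 that did not pass.

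Of 27 chemokines and cytokines 21 had higher means, 6 lay wholly above Control and 1 wholly below, and the median was 0.22. Ccl7, Cxcl1 and Lif passed as higher and 0 as lower, and the member wholly below was Cxcl12 (−0.72, adjusted p = 0.396), chosen here after its value was seen. Without Post-2hr replicate 1 the median was 0.46, and without Post-2hr replicate 3 it was 0.14. Of 18 NF-kB feedback and adhesion genes 17 had higher means, with a median of 0.43, and 0 passed. The inhibitors Tnfaip3, Nfkbie and Zc3h12a differed by 1.40, 0.74 and 0.46. Markers of leukocytes, the cells that respond to these chemokines, had higher means in 12 of 14 genes (median 0.12; 3 wholly above, 0 past the test). Their mean level per array was 5.88 to 5.98 at Post-2hr and 5.73 to 5.79 in Control, and 6 of the 14 were below the lower quartile of their arrays in Control. Endothelial markers had much the same values, with 11 of 12 means higher, 3 wholly above, 0 past the test, a median of 0.12 and mean levels per array of 5.75 to 5.93 at Post-2hr and 5.68 to 5.82 in Control. The part of these shifts in the chemokine values was not tested.

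Energy metabolism was uneven. Hk2 passed as the 1 member of 16 glucose uptake and glycolysis genes to do so, and the list's median was −0.02, of either sign across the scalings. Pfkm (−0.28) and Aldoa (−0.17) were wholly below Control, as was Pfkfb3 (−0.47), the last 2 picked after their values were seen. None of these 3 passed. Of 49 measured subunits of oxidative phosphorylation, 40 had lower means, 6 were wholly below and 0 wholly above, with a median of −0.06. Cox7b passed as lower, and Sdha (−0.21) and Ndufs1 (−0.25) did not. Cox7b was dim for this list, at a Control mean of 6.63 beside a list median of 10.44 in Control. The count of lower means follows the scaling, since 24 of the 49 were higher after median centring and 18 after quantile normalization. Of 20 FoxO and nutrient-withdrawal genes 14 had lower means (median −0.08), and Sesn1 passed. That median was 0.08 within replicate 1 and −0.23 within replicates 2 and 3.

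The TGF-beta, activin and BMP list had a median of −0.03 over 32 genes, with members on both sides. Acvr1b passed as lower, while the ligand Tgfb1 was at 10.24, 10.52 and 10.39, against 9.91, 9.84 and 9.90, a difference of 0.50 without overlap that did not pass (adjusted p = 0.165). Fstl3, which binds and blocks activin, differed by 0.46. Of 10 measured NRF2 targets, 10 had higher means under all 3 scalings (median 0.27, 0 past the test). In Nqo1, Hmox1 and Slc7a11, whose differences were 1.03, 1.01 and 0.95, the groups overlap because replicate 1 was high in both groups. For example, Slc7a11 was at 10.93, 8.40 and 8.16, against 10.39, 7.12 and 7.16. The NRF2 median was 0.06 without Post-2hr replicate 1 and 0.52 without Post-2hr replicate 2. Known targets of shear in endothelial cells had higher means in 15 of 17 genes, with a median of 0.48 and 0 past the test. Podocyte genes had a median of 0.06 over 31 members, with 0 past the test, and the largest difference was 0.37, in Nes.

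**Figure D3:**
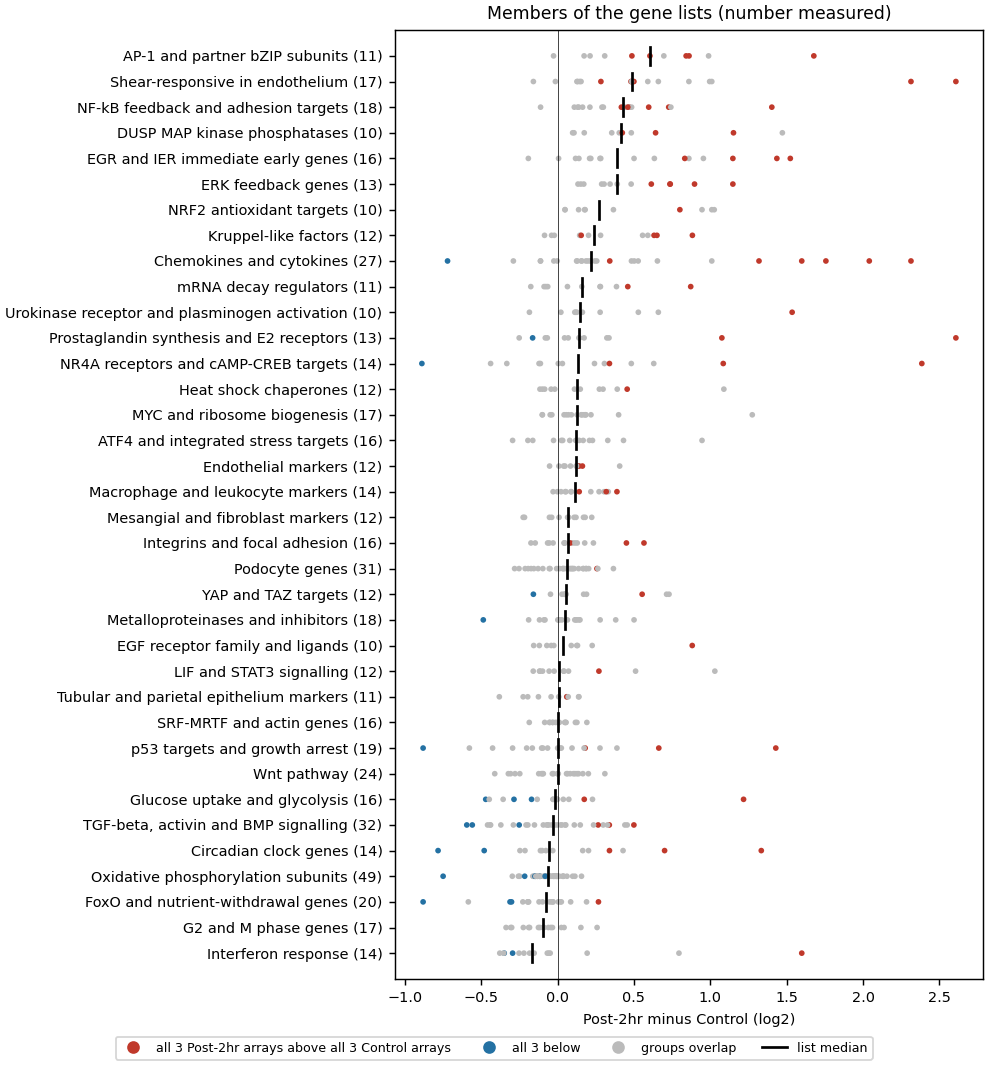
Post-2hr minus Control (log2) of each measured member of the 36 gene lists, ordered by the list median (black bar); red points have all 3 Post-2hr arrays above all 3 Control arrays, blue points all 3 below, grey points overlap. The AP-1 list has the highest median (0.60) and the interferon list the lowest (−0.17).

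Changes were also taken within the sets of arrays, which share none. Across the 14860 genes the change within replicate 1 and the mean change within replicates 2 and 3 had Pearson's r = 0.385 and Spearman's rho = 0.349, and 63.6% of genes had the same sign. These describe genes of the same 6 arrays, which are not independent replicates. Of the 100 genes with the largest increase within replicates 2 and 3 (median 0.95), 80 were also higher within replicate 1, with a median of 0.62 there. Of the 100 with the largest decrease (median −0.80), 77 were also lower within replicate 1, with a median of −0.25. By replicate number, 72, 82 and 73 genes were higher by more than 1 on the log2 scale and 16, 53 and 33 were lower by more than 1.

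The difference between the sets was itself tested with an interaction term, which called 0 of 23332 rows (limma; lowest adjusted p = 0.924; 1049 rows, or 4.5%, at an unadjusted p under 0.05). Within replicate 1 this term rests on 1 Post-2hr and 1 Control array, and 4 residual degrees of freedom remain, so 0 calls does not show that the sets respond alike. Hspa1a, a heat shock chaperone picked as an example after its values were seen, differed by 3.41 within replicate 1 and by −0.07 within replicates 2 and 3. It was not called either. Other genes differed less. Nr4a1 changed by 3.22 within replicate 1 and 1.97 within replicates 2 and 3, and Cxcl1 by 2.28 and 1.50. Ptgs2 ran the other way, with 1.92 and 2.95, as did Sesn1 with −0.53 and −1.05. Plaur (1.43 and 1.59), Fosl1 (1.72 and 1.66), Runx1 (1.20 and 1.15) and Hk2 (1.12 and 1.27) had much the same change in both sets. G2 and M phase genes, which were lower in replicate 1 than in the other arrays by a median of −1.48, had a median change of −0.36 within replicate 1 and 0.03 within replicates 2 and 3. A fit on replicates 2 and 3 of all groups called 0 rows (lowest adjusted p = 0.0876; 2652 rows at an unadjusted p under 0.05; 0 without variance moderation).

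**Figure D4:**
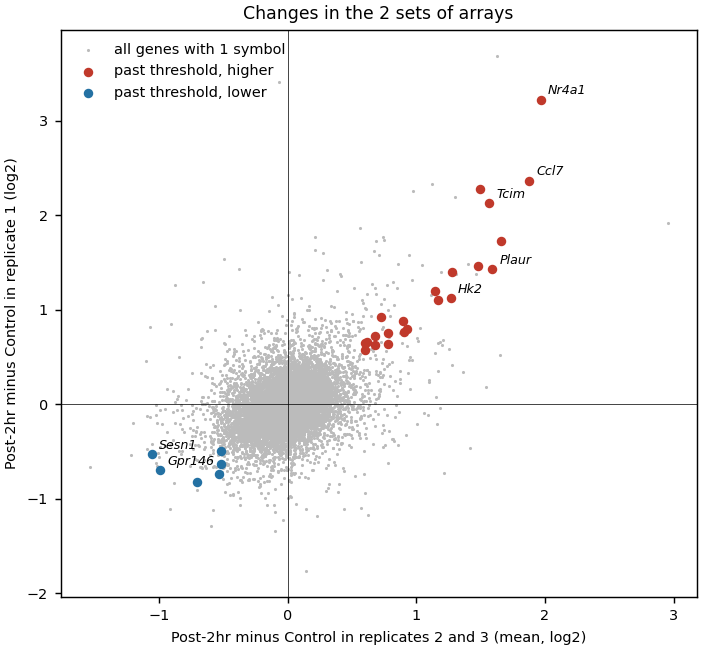
Change within replicates 2 and 3 (x axis, mean, log2) and within replicate 1 (y axis, log2) for 14860 genes, with the 22 higher (red) and 6 lower (blue) named genes past the threshold in the set-apart fit. The red points lie in the upper right quadrant and the blue points in the lower left, and the grey cloud spreads along both axes. The coloured points were chosen by their change on these same arrays, so their quadrants are largely built in.

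The levels at the other harvests are given for the same genes, which were chosen for their difference at Post-2hr, so that a peak there is built in. The values against Control at End and Post-24hr share the Control arrays with those at Post-2hr and are given side by side. Over the 22 higher genes the median was 0.36 at End, 1.02 at Post-2hr and 0.37 at Post-24hr, and over the 6 lower genes it was 0.06, −0.68 and −0.21. No row passed at End or at Post-24hr against Control in either model (lowest adjusted p = 0.425 and 0.372 with group means only; 845 and 561 rows at an unadjusted p under 0.05; 0 without variance moderation). Plaur averaged 8.36 ± 0.13 in Control, 8.88 ± 0.18 at End, 9.90 ± 0.03 at 2 h and 9.16 ± 0.02 at 24 h (SD, n = 3 each). Hk2 differed from Control by 0.10 at End, 1.22 at 2 h and 0.35 at 24 h. Plk2 differed by 0.15, 0.66 and 0.62, and Ier3 by 1.04, 1.15 and 0.64. Egr2 differed by 2.25, 1.44 and 0.97, with its largest value at End.

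Post-2hr was also compared with End directly. The difference of these means uses no Control array, but the Control arrays enter the shared estimate of the spread. The Post-2hr arrays are the same as in the comparison with Control. With group means only, 3 rows were higher and 3 lower at Post-2hr (0.0129% each), and in the set-apart fit 8 were higher (0.0343%) and 28 lower (0.12%). Plaur was higher by 1.02 ± 0.10 (adjusted p = 0.0196) and Gpr146 lower by a difference of −1.19 ± 0.11 (adjusted p = 0.0107). Bmf, a BH3-only protein that promotes cell death, averaged 7.88 ± 0.31 at Post-2hr and 9.55 ± 0.09 at End, a difference of −1.67 ± 0.20 (adjusted p = 0.0456), and Runx1t1, a transcriptional corepressor, differed by −0.95 ± 0.12 (adjusted p = 0.0486). Neither passed against Control, from which they differed by 1.04 and 0.41 at End and by −0.63 and −0.54 at Post-2hr. The dim vomeronasal receptor gene Vmn1r82 was higher by 1.62, at 4.48 against 2.86 at End.

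In the set-apart fit of Post-2hr minus End, Ppargc1a, Sesn1, Fbxo32, Pik3ip1 and Flcn were among the 28 lower rows. Ppargc1a averaged 6.96 ± 0.39 at Post-2hr and 8.45 ± 0.28 at End, a difference of −1.49 (set-apart adjusted p = 0.034), and Sesn1 8.59 ± 0.03 and 9.70 ± 0.08, a difference of −1.11 (adjusted p = 0.031). Fbxo32, a muscle-wasting ubiquitin ligase and FoxO target, differed by −1.10, Pik3ip1, an inhibitor of PI 3-kinase, by −0.80 and Flcn, folliculin, by −0.82. Hk2 was higher than at End by 1.12, Fosl1 by 1.19, Lrrc8c by 0.61 and Ugdh by 0.61. With the replicate number as a block, which pairs the Post-2hr and End arrays too, 2 rows were higher (0.00857%) and 4 lower (0.0171%). Plaur, Gpr146, Bmf and Runx1t1 passed there (adjusted p = 0.0315, 0.0277, 0.0315 and 0.0277). Sesn1 (0.0534) and Ppargc1a, Fbxo32, Pik3ip1, Hk2, Fosl1, Lrrc8c and Vmn1r82 (each 0.0545) lost their calls, as did Flcn (0.0636) and Ugdh (0.0652). Bmf, Runx1t1, Vmn1r82, Fbxo32, Pik3ip1, Flcn and Ppargc1a were picked here as examples after their values were seen.

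Against Post-24hr, 0 rows passed with group means only (limma; lowest adjusted p = 0.24; 1332 rows, or 5.71%, at an unadjusted p under 0.05; 0 without variance moderation). In the set-apart fit 2 genes were higher at Post-2hr (0.00857%). Nfatc1 averaged 9.32 ± 0.32 at Post-2hr and 8.29 ± 0.18 at Post-24hr, a difference of 1.03, and Ugdh 11.19 ± 0.40 and 10.33 ± 0.24, a difference of 0.86 (adjusted p = 0.0402 for both).

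**Figure D5:**
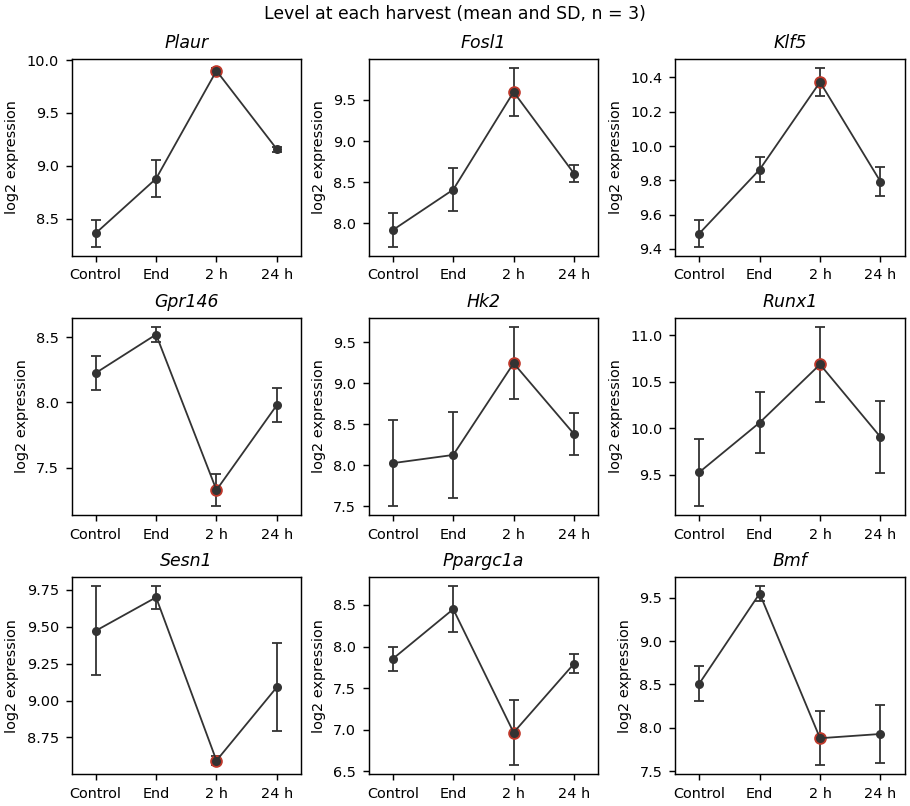
Mean log2 expression and SD (n = 3) in Control cells, at End, at 2 h and at 24 h for 9 genes, with the 2 h harvest ringed in red. Plaur, Fosl1, Klf5, Hk2 and Runx1 are highest at 2 h, Gpr146, Sesn1 and Ppargc1a are lowest there, and Bmf is highest at End (9.55) and close to its 24 h level (7.93) at 2 h (7.88).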

How the data were processed

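Each of the 12 samples was read on 1 array (Affymetrix Mouse Exon 1.0 ST), per the labels. The table the authors deposited holds 1 log2 value for each row and array. Their processing notes name RMA, which corrects background, normalizes and summarises probes, and Partek. The sources used here give no version, setting or genome build for either. Because RMA draws arrays towards 1 distribution, a change in total RNA would be lost. Of 23332 rows, 14996 have 1 gene symbol, 1019 several and 7317 are unnamed here, by the platform annotation; 14860 genes remain with 1 row each, the brightest on average. There are 0 columns of other samples. Array medians were 6.93 to 7.12, and the number of arrays limits the precision.

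All rows of all 12 arrays were fitted with limma 3.58.1 (R 4.3.3, lmFit and eBayes) with a mean for each of the 4 groups (8 residual degrees of freedom), with Benjamini-Hochberg adjustment over all rows and a threshold of 0.05. A second fit added a term with 2 levels for replicate 1 against replicates 2 and 3 (7 residual degrees of freedom). Standard errors beside set-apart calls come from that fit. The labels give no batch or scan date. Deviations from the group means of same-numbered Post-2hr and Control arrays correlated at 0.723, 0.218 and 0.288. The deviations of a group cancel, so the shift of replicate 1 alone gives positive values for replicates 2 and 3. Of the 12 arrays, 11 matched best with an array of their own number, and Post-2hr replicate 2 did not. A fit with the number as a block with 3 levels, which treats the numbers as pairs, is given where it changes the call of a gene named. That pairing is read from the data and is not settled for replicates 2 and 3. The fits were tested on simulated data with independent noise and changes of 3 on the log2 scale. These are larger than any change called here, so smaller changes were not tried.

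The members, the 36 gene lists, the term for replicate 1 and the rule for named genes were chosen with earlier results of these data known. The rule took, leaving out predicted models, every gene past the threshold in either fit, the 15 largest increases and 15 largest decreases without overlap at an unadjusted p under 0.01 in the set-apart fit, up to 4 members of each list with the smallest p, and a fixed set (164 genes in all). Alternatives were the replicate block, replicates 2 and 3 only, the 6 compared arrays only, median centring, quantile normalization, filters on dim rows (percentiles 25 and 50), rows with 1 symbol, an intensity trend, no variance moderation, array weights and each array left out. List medians under both scalings were added after seeing the data. Promoters come from a RefSeq table (GRCm38.p6).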

Additional observations from a re-analysis of the deposited data

Results flagged for a closer look

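The report covers genes with 1 symbol, and 7 further rows passed in the set-apart fit for Post-2hr minus Control; 5 of them are unnamed here and 2 carry several gene symbols. They are listed because they lie outside the genes described. The differences of the rows without a symbol were −0.893, −0.577, 0.642, −0.864 and 1.163, and those of the rows with several symbols were −0.735 and −0.841. The row with 1.163 measured 9.01, 8.72 and 8.05 in Post-2hr arrays, against 7.71, 7.39 and 7.19 in Control arrays (set-apart adjusted p = 0.0433). The row with −0.841 measured 9.36, 9.08 and 9.37, against 9.90, 10.23 and 10.20 (adjusted p = 0.0417). In each of these 2 rows the groups do not overlap. The row with −0.864 was dim, at 2.36, 2.47 and 2.33, against 3.26, 3.31 and 3.17. With the replicate number as a block, 4 of the 7 lost their calls, those with −0.893, −0.577, −0.735 and −0.841 (adjusted p = 0.0502, 0.0578, 0.0705 and 0.0667). With group means only, none of the 7 passed (adjusted p 0.0939 to 0.839).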

How the results depend on the processing

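For Post-2hr minus Control with group means only (3 higher, 1 lower), setting replicate 1 apart gave 24 and 12, the replicate block 28 and 10, and array weights, which ran from 0.339 for Post-2hr replicate 1 to 5.863 for Control replicate 2, gave 1632 and 2231. On replicates 2 and 3 only, and on the 6 compared arrays only, 0 and 0 passed. Median centring, quantile normalization and no variance moderation each left 0 lower. The brighter 50% of rows gave 7 and 3, and rows with 1 symbol gave 7 higher. Leaving out 1 array gave 1 to 4 higher and 0 to 2 lower. The set-apart counts (24 and 12) were 0 and 0 on the 6 compared arrays (limma; lowest adjusted p = 0.106; 2473 rows at an unadjusted p under 0.05), 37 and 5 after quantile normalization, 47 and 28 above percentile 25, 119 and 116 above percentile 50, 78 and 55 for rows with 1 symbol, 41 and 20 with an intensity trend, 3 and 3 without variance moderation, and 40 and 28 with array weights; median centring left 4 lower. Leaving out 1 array gave 1 to 24 and 0 to 8, with 9 and 1 without Post-24hr replicate 2. For Post-2hr minus End (3 and 3), the set-apart fit gave 8 and 28, and the replicate block 2 and 4. For Post-2hr minus Post-24hr (0 and 0), the set-apart fit gave 2 higher, and the replicate block 4 and 1. Among the 164 named genes, no called Post-2hr minus Control value changed sign between group means only and its alternatives. Signs of other rows and of the other comparisons were not checked. The cause of the shifts in these counts was not tested. With 3 arrays a group and no detection calls, dim rows and small differences cannot be judged.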
